A study of Mus musculus with 19 samples.

Results

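The genes described here build the vacuolar proton pump and the machinery by which a phagosome matures into an acid, degradative compartment. They were picked by gene symbol, with earlier results of these data known: 40 symbols, of which 39 matched 1 row each among the 56941 genes of the tables. Vamp7 was not analysed here. By role they are 10 genes of the pump's membrane domain, 8 of its catalytic domain, 8 Rab GTPases, 3 SNAREs, 7 lysosome membrane proteins or ion transporters and 3 transcription factors of the MiT/TFE family. All 39 passed the filter on low counts, each with at least 445 counts in every library.

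The RNA came from cells washed from the airspaces of female mice aged 7 to 8 weeks, labelled as alveolar macrophages, the resident phagocytes of the lung surface. Wild type C57Bl/6J mice and mice null for ICAM-1, an adhesion molecule, were either naive or had aspirated Staphylococcus aureus bioparticles, killed bacteria carrying the pHrodo dye, 1 h earlier. The exposed mice received 100 µL at 2.27 mg/mL under isoflurane by oropharyngeal aspiration, and all lavage used PBS with 2 mM EDTA. There were 4 wild type naive, 5 ICAM-1 null naive, 5 wild type exposed and 5 ICAM-1 null exposed libraries. The cells are a whole lavage pellet with no sort described. Whether naive mice were given vehicle, whether each library is 1 mouse, and the strain background of the null line are not given, so p-values measure the spread between these libraries, exposure includes the aspiration itself, and loss of ICAM-1 and any other difference of that line from wild type cannot be told apart.

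As background, the vacuolar ATPase has a peripheral V1 domain that hydrolyses ATP and a membrane V0 domain through which protons pass into the organelle. A new phagosome first carries Rab5, exchanges it for Rab7, and fuses with lysosomes by means of SNARE proteins, while chloride and cation channels balance the charge that the pump moves. TFEB, TFE3 and MITF enter the nucleus when lysosomes are stressed or particles are taken up, and bind CACGTG elements in front of many lysosomal genes. pHrodo fluoresces more strongly in acid, so the aspirated particle itself reports on this compartment.

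Promoters are shown first, searched for the CACGTG element that the MiT/TFE factors can bind, and binding was not measured. RefSeq promoters (GRCm38.p6, from 250 bases before to 50 after the start) were found for 32 of the 39 genes. The motif CACGTG, which reads the same on both strands, was in 10 of the 32 (31.2%), against 8.09% of 27025 genes in the table. TCACGTG on either strand, which contains CACGTG, was in 8 of the 32 (25%), against 4.29%. The 10 genes were Atp6v0b, Atp6v0d1, Atp6v0e, Atp6v1a, Clcn7, Lamp1, Mcoln1, Rab5a, Rab20 and Rab27a, and of these Rab20 and Rab27a lacked TCACGTG. A match is a run of letters and not a shown binding site. The windows below, with CACGTG in capitals, belong to 5 genes that are followed through the results: Lamp1 holds 4 copies within 75 bases, and Rab20 and Atp6v1a hold 1 each, 46 and 131 bases before the start.
Lamp1 (chr8:13159086-13159160, plus strand): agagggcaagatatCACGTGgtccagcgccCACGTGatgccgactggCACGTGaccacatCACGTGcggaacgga
Mcoln1 (chr8:3500439-3500498, plus strand): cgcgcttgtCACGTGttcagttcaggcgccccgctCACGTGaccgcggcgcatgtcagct
Rab20 (chr8:11478656-11478715, minus strand): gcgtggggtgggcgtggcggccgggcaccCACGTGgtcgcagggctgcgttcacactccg
Atp6v1a (chr16:44139360-44139419, minus strand): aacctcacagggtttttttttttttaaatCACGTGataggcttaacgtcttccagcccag
Clcn7 (chr17:25133331-25133390, plus strand): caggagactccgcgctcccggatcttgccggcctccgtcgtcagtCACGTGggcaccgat

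Total counts were 32.8 M to 80.3 M per library. Icam1 was at 74.6 ± 10.7 TPM in wild type naive cells (SD, n = 4) and 899 ± 155 after exposure (n = 5), against 8.13 ± 2.63 and 10.8 ± 1.59 in the null groups (n = 5 each), which is the order the labels give. The summed level of 15 alveolar macrophage markers was 26768 to 36688 TPM in every library, with none of the 15 at 0. Calls of markers are on scaled counts unless another scale is named, while levels are TPM, and both scales are described below. Of all genes tested, 20.1% were called higher and 20.2% lower with exposure in wild type, and 21.4% and 23.4% in null mice. On log2(TPM + 1) these shares were 11.0% and 41.0% in wild type and 10.9% and 41.0% in null mice. Whether any marker list departs from them was not tested. Of the 15 alveolar macrophage markers, 10 were called higher and 3 lower with exposure in wild type, and 6 and 2 in null mice. In wild type Plet1 went from 1186 to 1220 TPM to 4101 to 5586 and Siglecf from 295 to 309 TPM to 153 to 208. Markers of other cells moved too. Epithelial markers (15 genes) summed to 671 to 865 TPM in wild type naive libraries (Krt13 at 0), 559 to 795 in null naive, 1352 to 3696 in wild type exposed and 831 to 1446 in null exposed ones. On counts 12 of 15 rose in wild type, and in null mice 10 rose and 1 fell. Scgb1a1, of secretory cells, went from 197 to 284 TPM to 707 to 2525 in wild type and from 165 to 264 to 365 to 516 in null mice. Epcam and Cdh1 went the other way on TPM. In wild type they went from 70.6 to 96.3 to 46.8 to 62.6 and from 36.9 to 49.1 to 23.3 to 32.6. In null mice they went from 141 to 211 to 92.2 to 125 and from 38.2 to 51.7 to 23.9 to 29.0. Of the monocyte and interstitial macrophage markers (11 genes), 7 rose in wild type, and 4 rose and 1 fell in null mice. They summed to 154 to 185 TPM in wild type naive, 161 to 276 in null naive, 412 to 602 in wild type exposed and 522 to 593 in null exposed libraries. Most of that difference was Nr4a1, an immediate-early gene that stimulated macrophages also make, at 14.3 to 22.0, 19.5 to 27.2, 242 to 450 and 314 to 400 TPM. Without it the other 10 genes summed to 132 to 170, 135 to 257, 142 to 170 and 172 to 249 TPM, and naive and exposed groups overlapped. Erythroid and platelet markers (9 genes) summed to 139 to 414, 101 to 355, 373 to 2403 and 135 to 355 TPM, and 5 of 8 tested rose in wild type and 1 in null mice. The sum of neutrophil markers (12 genes) differed by genotype. It was 66.9 to 94.1 and 86.0 to 117 TPM in naive and exposed wild type and 170 to 185 and 125 to 189 in null libraries. Elane was at 0 throughout and Mpo, Ngp or Camp at 0 in some groups. In naive libraries Csf3r differed most, at 27.8 to 34.6 TPM in wild type and 95.8 to 105 in null mice. S100a8 and Cxcr2 were also higher in null naive libraries, while the ranges of Mmp8, Ltf and S100a9 overlapped. With exposure 4 of 8 tested rose and 1 fell in wild type, and 3 rose and 1 fell in null mice. With exposure 5 of 11 tested lymphocyte markers rose and 1 fell in wild type, and 2 rose in null mice. The sum of these markers (13 genes) was 522 to 585 and 368 to 417 TPM in wild type and 250 to 313 and 201 to 249 in null libraries. Cd2 held most of this sum, and the other 12 genes were at 57.5 to 66.8 and 67.4 to 79.2 TPM in wild type and at 51.6 to 63.0 and 53.1 to 65.1 in null libraries. On log2(TPM + 1) in wild type, 4 alveolar macrophage markers were called higher and 5 lower, and 10 and 2 epithelial markers. The same calls were 4 and 0 for monocyte, 6 and 0 for erythroid, 2 and 2 for neutrophil and 1 and 1 for lymphocyte markers. In null mice, in the same order, they were 4 and 6, 3 and 2, 4 and 1, 1 and 0, 2 and 3, and 0 and 1. The part of these cells in the members' changes was not tested, and in a lavage pellet fewer cells of a type and less RNA per cell cannot be told apart.

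Within 1 h of the bioparticles most of these genes were called higher on the scale of scaled counts. In wild type mice 25 of 39 were higher and 3 lower (28 of 39 called, against 40.2% of all 20501 genes tested, 20.1% higher and 20.2% lower). In ICAM-1 null mice 22 were higher and 7 lower (44.8% of all genes were called, 21.4% higher and 23.4% lower). The median log2 fold change of the members was 0.32 in wild type and 0.23 in null mice, against 0.02 over all genes in each. Calls are at an adjusted p under 0.05 in edgeR's quasi-likelihood test.

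The size of this shift depended on the scale. Scaled CPM (counts relative to library size after TMM scaling, which centres the bulk of genes) is used below for changes of 1 gene between groups, and TPM, which is per transcript length, for levels of different genes. On log2(TPM + 1) the median of all genes moved by -0.22 in wild type and -0.19 in null mice, and the members' medians were -0.06 and -0.10, which is above all genes in both. On that scale alone 11 members were higher and 14 lower in wild type (11.0% and 41.0% of all genes) and 9 and 16 in null mice (10.9% and 41.0%). Called higher on both scales were 11 members in wild type and 9 in null mice (10.3% and 10.5% of all genes), and called lower on both were 3 and 7 (20.0% and 23.1%). The 11 in wild type were Atp6v0c, Atp6ap2, Atp6v1a, Atp6v1e1, Atp6v1h, Rab20, Rab32, Gpnmb, Clcn7, Tfe3 and Mitf. Wild type naive libraries 1 to 3 had the lowest totals of their group, and with these 3 left out, so that a single wild type naive library stood for its group, 15 members were called higher and 1 lower in wild type, among them 10 of these 11, all but Mitf.

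**Figure D1:**
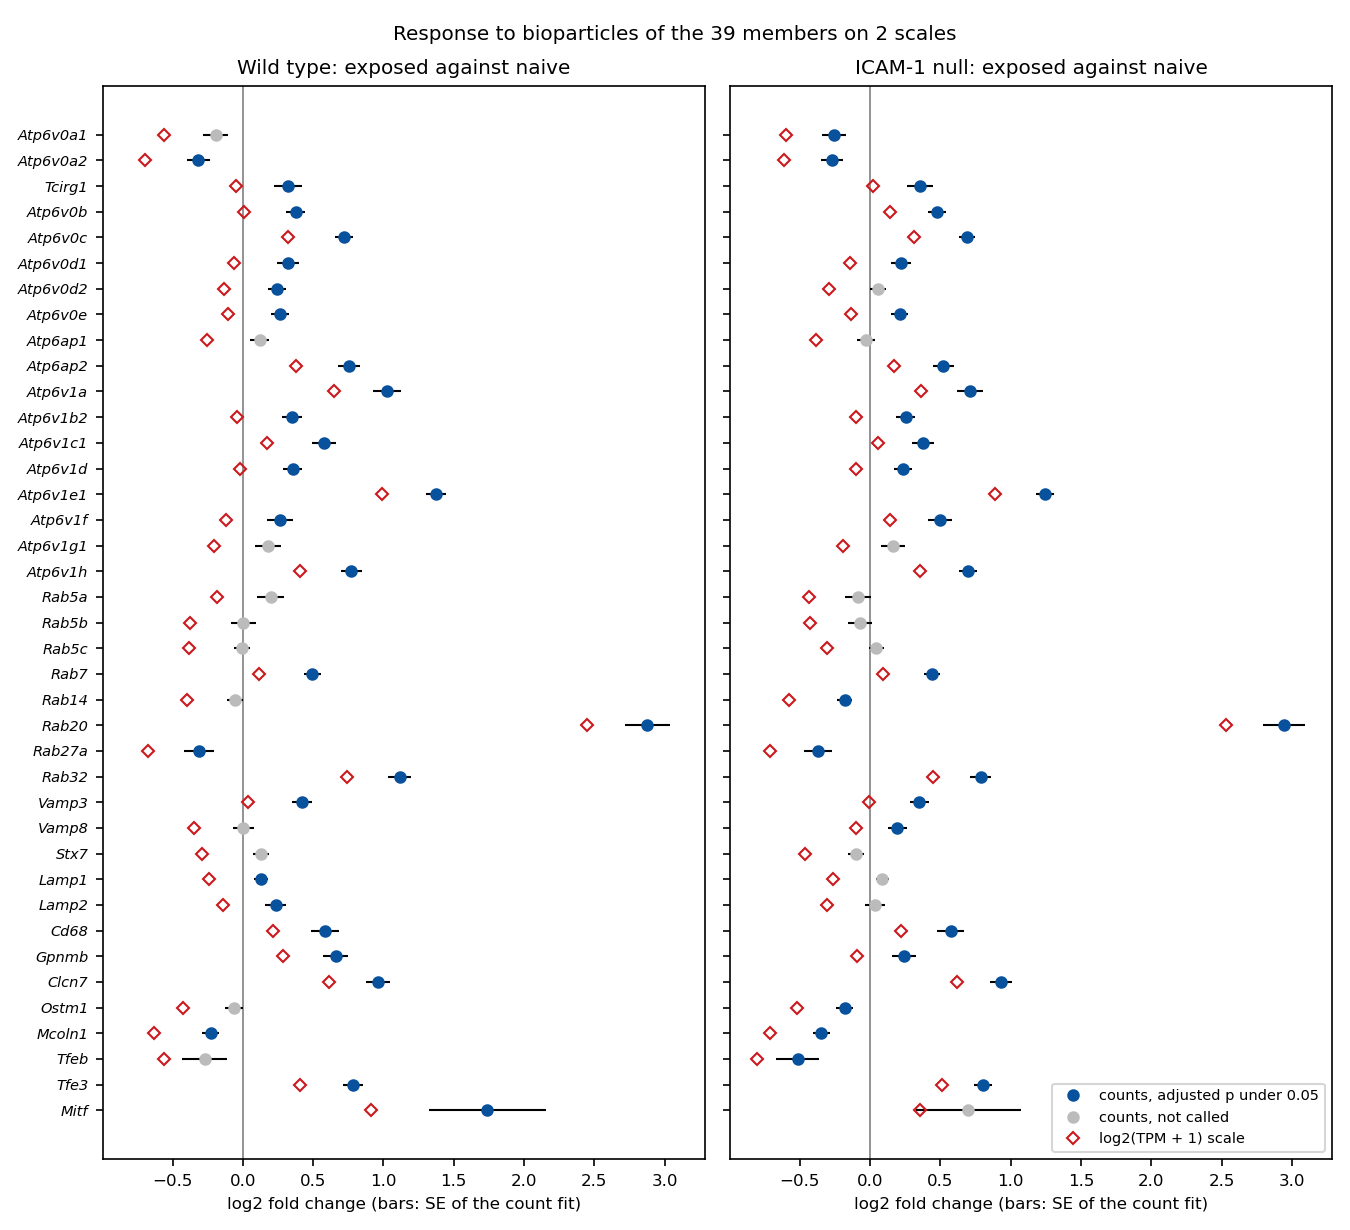
Log2 fold change (horizontal axis) of exposed against naive libraries for the 39 members in wild type and ICAM-1 null mice; filled points are the count fit with its SE, blue where adjusted p is under 0.05, and open diamonds the log2(TPM + 1) fit. Rab20 stands farthest right in both panels (2.88 and 2.94), and the diamonds lie left of the filled points for all members.

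The catalytic V1 domain rose in 7 of its 8 members in wild type and again in 7 of 8 in null mice, with none lower (median log2 fold change 0.47 and 0.43), whereas on TPM 3 rose and 1 fell in each. Beside the counts of this and each later role stand the shares of all genes tested. On counts these were 20.1% higher and 20.2% lower in wild type and 21.4% and 23.4% in null mice. On TPM they were 11.0% and 41.0% in wild type and 10.9% and 41.0% in null mice. Whether any role departs from these shares was not tested. Atp6v1e1, a peripheral stalk subunit that holds the 2 domains together, changed most of the V1 members. In wild type mice it went from 207, 194, 190.5 and 189 CPM in naive libraries to 578, 450, 472, 534 and 492 after exposure. In null mice it went from 131, 140, 130, 133 and 123 CPM to 309, 315, 306, 294 and 335. Every exposed library was above every naive library of its genotype, and every null library was below every wild type library of its treatment. Exposure raised it by 1.37 on the log2 scale in wild type (SE 0.07, adjusted p = 1.1e-12) and by 1.25 in null cells (SE 0.06, adjusted p = 1.1e-12), and by 0.99 and 0.89 on TPM.

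Atp6v1a, the subunit that hydrolyses ATP, was at 176, 162, 148 and 162 CPM in wild type naive libraries and at 378, 305, 339, 318 and 306 after exposure. Null naive libraries held 230, 251, 192, 197 and 206 CPM and null exposed ones 411, 362, 305, 303 and 382. The null naive libraries lay above all wild type naive ones, and the exposed groups overlapped. The log2 rise in wild type was 1.02 (SE 0.10, adjusted p = 4.3e-08), that in null cells was 0.71 (SE 0.09, adjusted p = 1.7e-06), and the TPM scale also called it higher in both (0.65 and 0.36). Atp6v1h, a regulatory subunit, rose from 72.4 to 79.0 CPM to 118 to 145 in wild type (log2 fold change 0.77) and from 81.1 to 94.5 to 132 to 154 in null mice (0.70), on both scales. Atp6v1c1, the subunit that clamps V1 onto V0, rose by 0.58 and 0.37 on counts, with 0.17 and 0.05 on TPM, which were not called.

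Atp6v1b2, the abundant partner of Atp6v1a in the nucleotide-binding ring, rose by 0.35 in wild type and 0.25 in null mice on counts, but its TPM values were -0.04 and -0.10 and not called. Atp6v1d, part of the rotor, had the same form, with 0.35 and 0.23 on counts and -0.02 and -0.10 on TPM. Atp6v1f, also of the rotor, rose by 0.26 and 0.50 on counts, with -0.12 and 0.15 on TPM. Its wild type call was lost without any 1 of wild type naive libraries 1, 2 or 4 or exposed libraries 1 or 5 (0.21 to 0.26, adjusted p 0.058 to 0.085). Atp6v1g1, the other peripheral stalk subunit, was not called on counts (0.18 and 0.16) and was lower on TPM (-0.21 and -0.19).

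**Figure D2:**
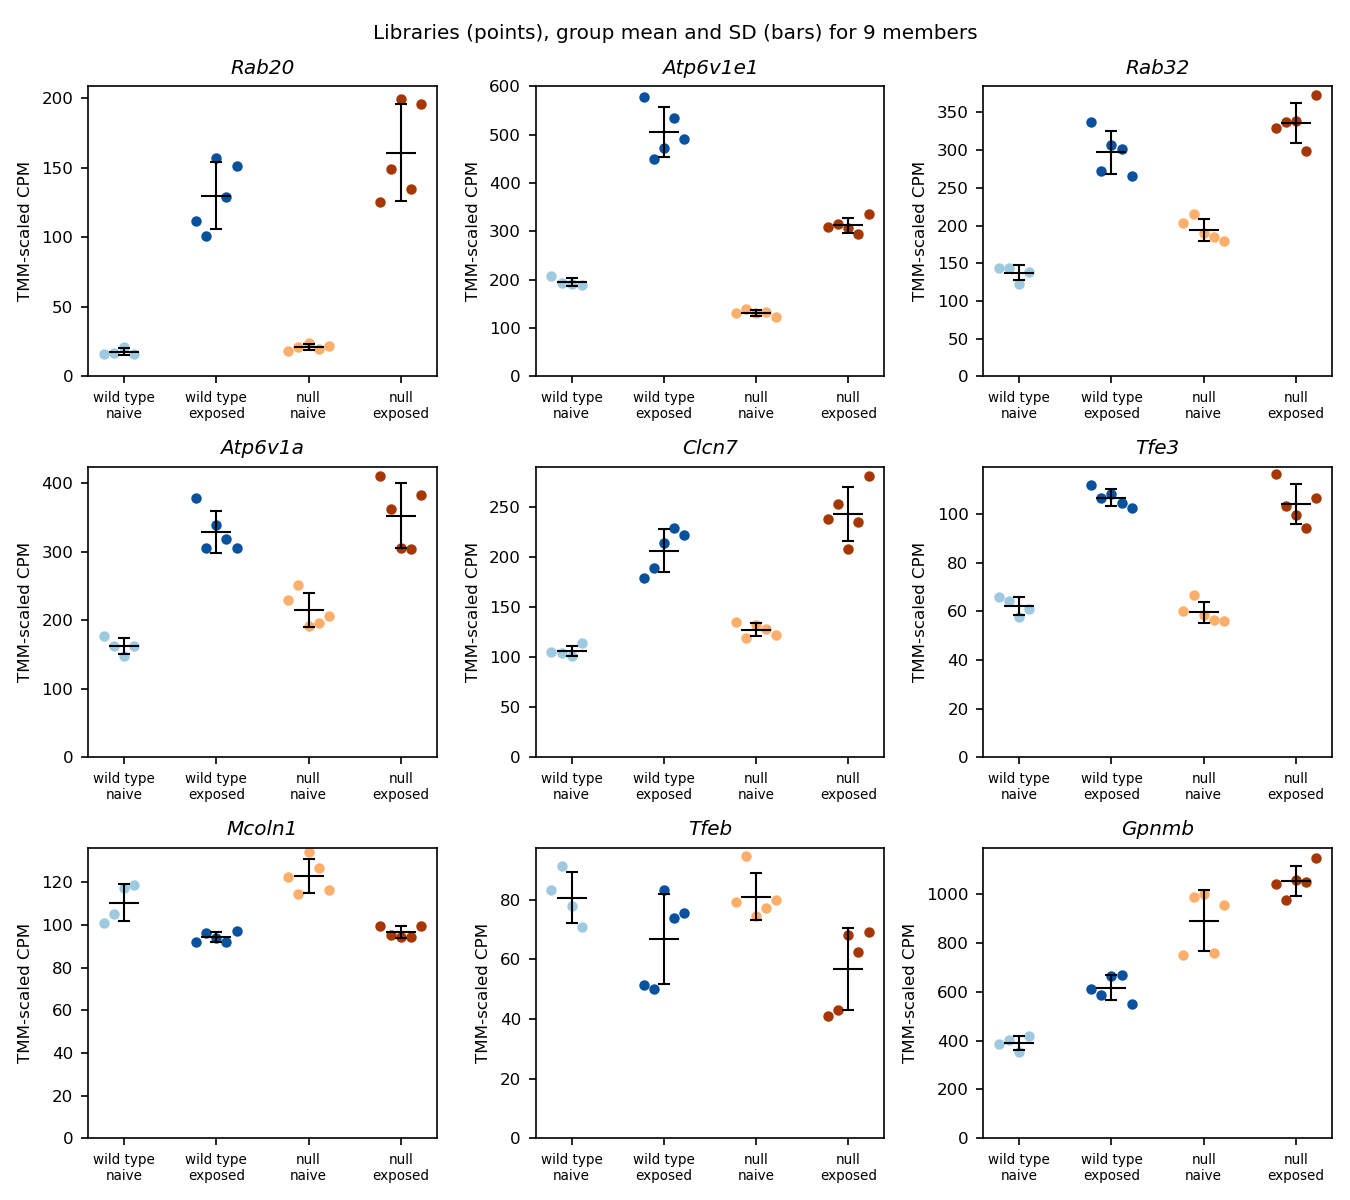
TMM-scaled CPM (vertical axis, from 0) of 9 members in each library of the 4 groups, with group mean and SD as bars. Exposed libraries lie above naive ones for Rab20, Atp6v1e1, Rab32, Atp6v1a, Clcn7 and Tfe3 and below them for Mcoln1 in both genotypes, while Tfeb overlaps in wild type and Gpnmb and Atp6v1e1 separate by genotype.

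Among the V0 members 7 of 10 rose and 1 fell in wild type, and 6 rose and 2 fell in null mice (median 0.29 and 0.21), against 2 and 3, and 2 and 4, on TPM. Atp6ap2, the accessory protein also known as the prorenin receptor, went from 225 to 262 CPM to 364 to 475 in wild type (log2 fold change 0.76, SE 0.08) and from 248 to 291 to 344 to 404 in null mice (0.52, SE 0.07). On TPM it was called in wild type (0.38) and had 0.17, adjusted p = 0.052, in null mice. Atp6v0c, the proteolipid that forms most of the proton-carrying ring, went from 451 to 465 CPM to 677 to 792 in wild type and from 497 to 563 to 798 to 906 in null mice, with no overlap. Its log2 fold change was 0.72 (SE 0.06) and 0.69 (SE 0.06), and 0.32 on TPM in both. Atp6v0c is uncertain as a single gene, because the processed pseudogene Atp6v0c-ps2 is listed at 44.6% of its level and may share its reads. The pseudogene's own log2 fold change was 0.63 in wild type and 0.61 in null mice, and the 2 together went from 1200 ± 9.20 TPM (SD, n = 4) to 1480 ± 113 (n = 5) in wild type and from 1306 ± 68.5 (n = 5) to 1608 ± 134 (n = 5) in null mice.

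The remaining ring, stalk and accessory genes of V0 moved less. Atp6v0b, the other proteolipid, rose by 0.37 and 0.47 on counts, with 0.01 and 0.14 on TPM, of which the second was called. Atp6v0e, a small membrane subunit, rose by 0.26 and 0.21 on counts but had -0.11 and -0.13 on TPM. Atp6v0d1, which couples the rotor to the ring, rose by 0.32 and 0.22 on counts, with -0.06 and -0.14 on TPM, and its null call was lost without null naive library 4 or null exposed library 3 (0.18, adjusted p 0.056 and 0.054). Its macrophage and osteoclast isoform Atp6v0d2 rose by 0.24 in wild type on counts (-0.13 on TPM) and was not called in null mice (0.06, and lower on TPM at -0.29). Atp6ap1, another accessory protein, had 0.12 and -0.03 and was not called on counts; on TPM it was lower in both (-0.25 and -0.39).

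The a subunit forms the proton path, and its 3 isoforms here did not all move the same way on counts. Tcirg1, the a3 isoform known from osteoclasts and macrophage lysosomes, was higher by 0.32 in wild type and 0.36 in null mice on counts, and had -0.05 and 0.02 on TPM; without wild type naive library 1 the wild type value was 0.26 (adjusted p = 0.065). Atp6v0a2 fell by 0.32 and 0.27, from 45.4 to 48.8 CPM to 34.4 to 42.5 in wild type and from 43.4 to 55.2 to 35.9 to 40.7 in null mice, with lower calls on TPM too. Atp6v0a1 was at 155 to 184 CPM in wild type naive and 135 to 169 in exposed libraries (-0.19, adjusted p = 0.091), and fell by 0.26 (adjusted p = 0.016) in null mice, from 153 to 178 to 118 to 162, a call that upper-quartile scaling did not make (-0.21, adjusted p = 0.059). On TPM it was lower in both.

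Ratios of 2 genes within 1 library do not depend on the scaling of that library. The TPM of Tcirg1 was 4.83 times that of Atp6v0a1 in wild type naive libraries and 6.93 times after exposure, a log2 difference of 0.52 (exact permutation test, two-sided, p = 0.0238, adjusted over 6 comparisons 0.0714). In null mice it went from 5.44 to 8.40 times, a log2 difference of 0.63 (exact permutation test, p = 0.00794, adjusted 0.0476), and all 5 exposed libraries were above all 5 naive ones. The p of 0.00794 is the smallest that 5 libraries against 5 allow. Without any 1 of the 5 null naive libraries the adjusted p of the same test was 0.0635 to 0.0714, with differences of 0.58 to 0.66. The call was therefore lost without any 1 of them. Atp6v0d2 was 4.42 times Atp6v0d1 in wild type naive and 4.20 times in exposed libraries (log2 difference -0.08, exact permutation test, adjusted p = 0.452), and 4.71 and 4.23 times in null mice (-0.16, adjusted p = 0.127, or -0.20, adjusted p = 0.0476, without null exposed library 2). Rab5a against Rab5c, alternatives of 1 Rab, differed by 0.20 in wild type and -0.14 in null mice (exact permutation test, adjusted p = 0.143 and 0.219).

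**Figure D3:**
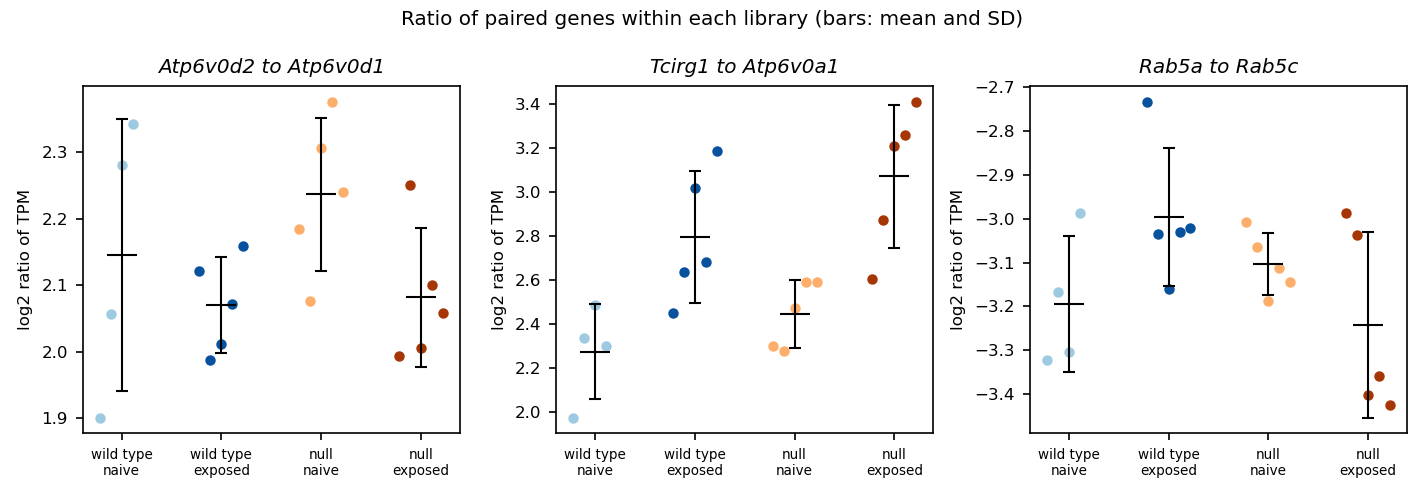
Log2 ratio of TPM (vertical axes, not from 0) within each library for 3 pairs of alternative subunits or paralogues, with group mean and SD as bars. The mean ratio of Tcirg1 to Atp6v0a1 is higher in exposed libraries, with all null exposed libraries above all null naive ones. Its wild type groups overlap (naive up to 2.49, exposed from 2.45), as do the groups of the other pairs.

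Levels within the pump spanned a wide range on the TPM scale. Over the 19 libraries Atp6v0b had the highest mean, 998 TPM (899 to 1155), followed by Atp6v0c at 974 (793 to 1218) and Atp6v0d2 at 802 (631 to 1034), and these neighbouring ranges overlap. That order was not the same in every group: by group means Atp6v0c was above Atp6v0b in both exposed groups, and Atp6v0d2 was above Atp6v0c in null naive libraries. Atp6v1g1 (560), Atp6v0e (548), Atp6v1b2 (517) and Tcirg1 (501) came next, again with overlapping ranges. Atp6v1a (120), Atp6v1h (100), Atp6v1d (90.8) and Atp6v0a1 (80.6) were lower, and Atp6v0a2 was lowest at 16.2 TPM (10.5 to 24.0), below every other pump gene in every library. Atp6v1e1 had the widest range of the 18, 3.52-fold from 202 to 710 TPM, and Atp6v1d the narrowest, 1.26-fold. Summed over the 18 genes the pump stood at 6891 to 7208 TPM in wild type naive, 6977 to 7317 in null naive, 6922 to 7619 in wild type exposed and 7102 to 7777 in null exposed libraries, so the 4 groups overlapped.

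**Figure D4:**
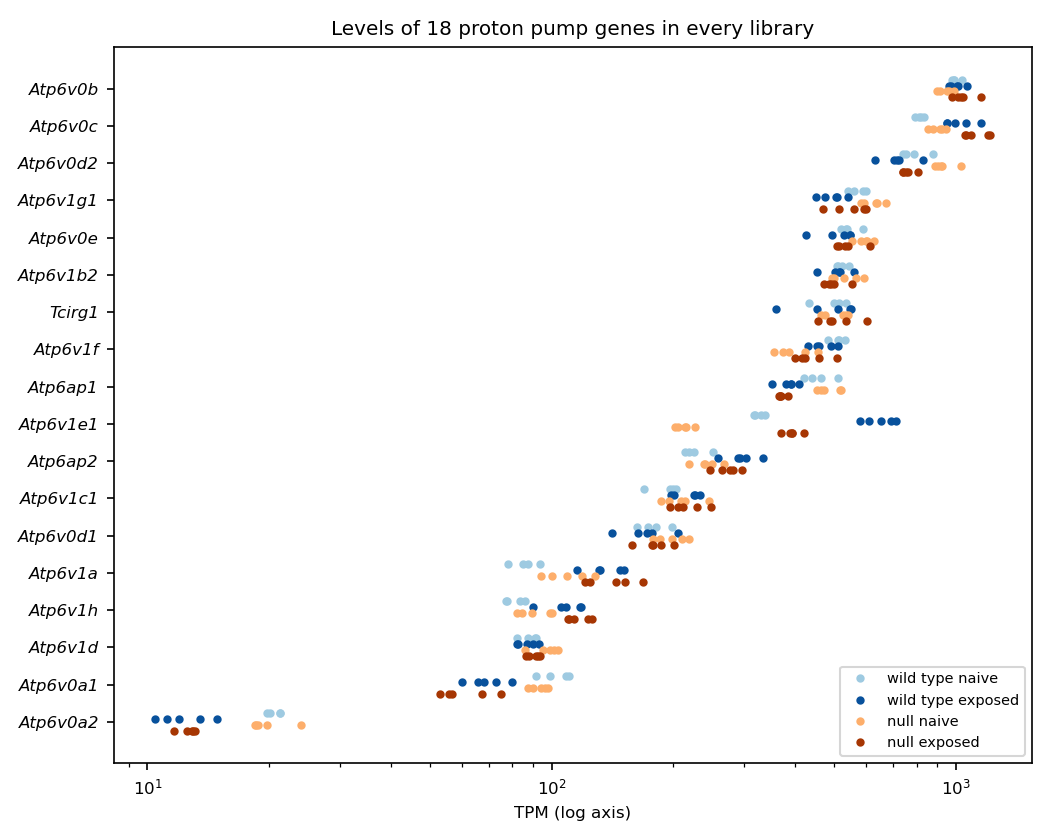
TPM (horizontal log axis) of the 18 proton pump genes, 1 point per library, colours for the 4 groups, genes ordered by their mean. Atp6v0b is highest and Atp6v0a2 lowest by mean over all libraries; the 4 groups of Atp6v1e1 stand apart, and those of most other genes overlap.

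Of the 8 Rab GTPases, which label compartments and recruit their tethers, 3 rose and 1 fell in wild type (median 0.10). In null mice 3 rose and 2 fell (median -0.01). On TPM 2 rose and 4 fell in wild type and 2 and 5 in null mice. Of all genes, 41.0% fell on TPM in each genotype. Rab20, which acts on phagosomes and endosomes early in maturation, changed most of all 39 members. Wild type naive libraries held 16.1, 17.1, 21.4 and 16.2 CPM and exposed ones 112, 101, 157, 129 and 151. Null naive libraries held 18.5, 20.8, 24.1, 19.5 and 21.8 CPM and exposed ones 125, 149, 200, 134 and 196. Exposed libraries of both genotypes were all above 100 CPM and naive ones all below 25. This is a log2 rise of 2.88 in wild type (SE 0.16, adjusted p = 6.5e-12) and of 2.94 in null cells (SE 0.15, adjusted p = 6.7e-13), with 2.45 and 2.53 on TPM. The response of null minus that of wild type mice was 0.07 (SE 0.20). A gene on the other strand of the Rab20 locus, E230013L22Rik, is listed at 7.44% of its level, and with the strand setting not given their reads cannot be told apart.

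Rab32, which directs traffic to lysosome-related organelles, was at 144, 144, 123 and 138 CPM in wild type naive and 338, 272, 307, 302 and 266 in exposed libraries. In null mice it was at 203, 216, 189, 185 and 179 CPM and then at 330, 338, 339, 299 and 373. The null naive libraries lay above all wild type naive ones, and the exposed groups overlapped. The log2 rise was 1.12 (SE 0.08, adjusted p = 4.7e-10) and 0.79 (SE 0.08, adjusted p = 2.2e-08), wild type first, with higher calls on TPM as well (0.74 and 0.45). Rab7, the late phagosome Rab, rose from 371 to 394 CPM to 505 to 582 in wild type (0.49, SE 0.06) and from 407 to 431 to 508 to 601 in null mice (0.44, SE 0.06), and had 0.12 and 0.09 on TPM, which were not called.

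The early phagosome Rabs were not called on counts in either genotype. Rab5a had 0.20 and -0.09, Rab5b 0.00 and -0.07, and Rab5c, the most abundant of the 3 at 427 TPM against 48.8 and 49.6, had -0.01 and 0.04. On TPM, Rab5b and Rab5c were lower in both genotypes and Rab5a in null mice. Rab14, of early endosomes and the Golgi, had -0.05 in wild type and fell by 0.18 in null mice (adjusted p = 0.0091), with lower calls on TPM in both. Rab27a, which tethers secretory lysosomes, fell by 0.31 in wild type, from 31.3 to 34.6 CPM to 23.0 to 28.7, and by 0.37 in null mice, from 40.6 to 48.9 to 26.0 to 42.3; the wild type call was lost without wild type naive library 4 or exposed library 4 (-0.29 and -0.26, adjusted p 0.056 and 0.064). On TPM Rab27a was lower in both.

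Of the 3 SNAREs, Vamp3, of recycling endosomes, rose in both genotypes on counts (0.42 and 0.35), from 96.2 to 104 CPM to 118 to 147 in wild type and from 96.9 to 112 to 123 to 144 in null mice, and had 0.03 and 0.00 on TPM, the second just below 0. Camta1, a gene that overlaps Vamp3, is listed at 6.37% of its level. Vamp8, of late endosomes, had 0.00 in wild type and 0.19 in null mice on counts (adjusted p = 0.024), with -0.35, called lower, and -0.10, not called, on TPM. The null call of Vamp8 was lost without any 1 of null naive libraries 1 or 5 or null exposed libraries 3 or 5 (0.14 to 0.18, adjusted p 0.055 to 0.090). Stx7, the late endosomal syntaxin, had 0.13 and -0.10 on counts, not called, and was lower on TPM in both.

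Among the 7 lysosome membrane proteins and transporters 5 rose and 1 fell in wild type (median 0.23). In null mice 3 rose and 2 fell (median 0.09). On TPM 2 rose and 3 fell in wild type and 1 and 4 in null mice. The share of all genes that fell on TPM was 41.0% in each genotype. Clcn7, the chloride and proton exchanger of the lysosome, was at 104, 104, 101 and 114 CPM in wild type naive and 178, 189, 214, 228 and 222 in exposed libraries. In null mice it was at 135, 119, 132, 128 and 122 CPM and then at 237, 253, 208, 234 and 280. Naive and exposed libraries did not overlap in either genotype, and the log2 fold change was 0.96 (SE 0.08) and 0.93 (SE 0.08), or 0.61 and 0.62 on TPM. Ostm1, the subunit that Clcn7 needs for stability, had -0.06 in wild type, not called, and fell by 0.18 in null mice (adjusted p = 0.018), a call that upper-quartile scaling did not make (-0.13, adjusted p = 0.069); on TPM Ostm1 was lower in both genotypes.

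Mcoln1, the lysosomal cation channel that releases calcium, fell in both genotypes. Wild type libraries held 101, 105, 117 and 119 CPM when naive and 92.0, 96.3, 94.1, 91.8 and 97.4 after exposure, and null libraries 123, 114, 134, 127 and 116 and then 99.6, 95.5, 94.4, 94.2 and 99.6. No exposed library reached a naive one of its genotype. Its log2 fold change was -0.23 (SE 0.06, adjusted p = 0.0051) and -0.35 (SE 0.06, adjusted p = 4.7e-05), and -0.63 and -0.71 on TPM. Of the 3 members of this class with CACGTG in the windows printed above, Clcn7 rose, Mcoln1 fell, and the direction of Lamp1 depended on the scale.

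Lamp1 and Lamp2, the chief glycoproteins of the lysosome membrane, had small differences. Lamp1 was higher by 0.13 in wild type on counts (adjusted p = 0.038) and lower by 0.24 on TPM, near the -0.22 of all genes. That count call was lost without any 1 of wild type naive libraries 1, 3 or 4 or exposed libraries 1 or 5 (0.11 to 0.13, adjusted p 0.050 to 0.106). Lamp2 had 0.23 on counts in wild type and -0.14 on TPM, and its call was lost without wild type naive library 1 or 3 or exposed library 1 (0.17 to 0.21, adjusted p 0.051 to 0.056). In null mice neither was called on counts (0.09 and 0.04), and both were lower on TPM (-0.26 and -0.31). Cd68, macrosialin, a macrophage relative of the Lamp proteins, rose by 0.59 and 0.57 on counts, from 258 to 340 CPM to 360 to 512 in wild type and from 288 to 375 to 467 to 539 in null mice, and had 0.21 and 0.22 on TPM, not called.

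Gpnmb, a glycoprotein of phagosomes and lysosomes in macrophages, rose in wild type from 386, 404, 352 and 418 CPM to 612, 588, 663, 671 and 548, or by 0.66 on the log2 scale (SE 0.09, adjusted p = 4.6e-06). In null mice it was at 752, 989, 1000, 760 and 955 CPM when naive and at 1041, 977, 1060, 1048 and 1149 after exposure. The null groups overlapped, and every null library was above every wild type one. The null response was 0.24 (SE 0.08, adjusted p = 0.022) on counts and -0.10 on TPM, and the count call was lost without null naive library 1 or 4 or null exposed library 5 (0.19 to 0.21, adjusted p 0.062 to 0.076).

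The 3 transcription factors of the family that reads CACGTG went different ways. Tfe3 rose from 65.8, 64.2, 57.6 and 60.9 CPM to 112, 106, 108, 104 and 103 in wild type, and from 60.3, 66.6, 58.7, 56.6 and 55.9 to 116, 103, 99.6, 94.4 and 107 in null mice. There was no overlap in either genotype, and the log2 fold change was 0.78 (SE 0.07) and 0.80 (SE 0.07), or 0.41 and 0.51 on TPM. Tfeb was at 83.1, 91.2, 77.9 and 70.7 CPM in wild type naive libraries and at 51.3, 50.0, 83.3, 73.9 and 75.6 in exposed ones, which overlap (-0.27, SE 0.16, adjusted p = 0.20). It fell in null mice, from 79.2, 94.7, 74.5, 77.1 and 79.8 CPM to 41.1, 43.0, 68.3, 62.4 and 69.1 (-0.51, SE 0.15, adjusted p = 0.0091). In both exposed groups libraries 1 and 2 held the lowest Tfeb values, 41.1 to 51.3 CPM against 62.4 to 83.3 in the others. On TPM Tfeb was lower in both genotypes (-0.56 and -0.80).

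Mitf counts need care, since they did not follow its TPM in 3 libraries. Relative to other members of the same library, Mitf had 0.45 counts per TPM in wild type naive libraries 2 and 3 and null exposed library 3 and close to 1 in most others, a 2.29-fold range, where the next widest was 1.20-fold (Tfeb). Its CPM was 37.8, 10.3, 12.8 and 48.3 in wild type naive, 75.0, 93.9, 76.7, 114 and 96.9 in wild type exposed, 40.3, 37.5, 46.0, 52.1 and 55.2 in null naive and 77.1, 88.3, 16.9, 88.3 and 105 in null exposed libraries. All wild type exposed libraries were above all wild type naive ones, and null exposed library 3 was below all null naive ones. On counts the log2 value was 1.74 for wild type (SE 0.42, adjusted p = 0.0020) and 0.70 for null cells (SE 0.38, adjusted p = 0.14). Without wild type naive libraries 1 to 3 the wild type value was 0.90 (adjusted p = 0.30). Without the 3 libraries of low counts per TPM, an alternative chosen after seeing the data, Mitf was called in both genotypes, with 1.08 in wild type (SE 0.18, adjusted p = 1.9e-04) and 0.95 in null cells (SE 0.14, adjusted p = 2.0e-05), and the response of null minus that of wild type was -0.13 (SE 0.22, adjusted p = 0.98). Null exposed library 3 decides the null call: without it alone the null value was 0.95 (SE 0.30, adjusted p = 0.014). On TPM with all libraries the value was 0.91 in wild type (adjusted p = 0.0027) and 0.36 in null mice (adjusted p = 0.19).

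The second question is whether the lines differed. In naive cells 7 members were higher and 1 lower in ICAM-1 null mice, against 4.31% and 2.55% of all genes (6.86% in either direction). After exposure 4 were higher and 1 lower, against 4.43% and 4.04% (8.48% in either direction). The median log2 difference of the members was 0.18 in naive and 0.07 in exposed cells, against 0.01 and 0.00 for all genes. On both scales 6 and 1 were called in naive cells (2.82% and 2.38% of all genes) and 1 and 1 in exposed cells (2.94% and 3.18%). With wild type naive libraries 1 to 3 left out, 1 member was called higher in naive null cells, Gpnmb, and with wild type naive libraries 2 and 3 and null exposed library 3 left out 4 were, and without null exposed library 3 alone 12 were. A count of 2 lower calls was reached without null naive library 3 or null exposed library 5, and on TPM, where Atp6v1f was lower too (-0.36, adjusted p = 0.0063).

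Gpnmb and Atp6v1e1 differed in both states, in opposite directions, and these calls held on both scales. Gpnmb was higher in null mice by 1.19 (SE 0.09, adjusted p = 8.1e-09) in naive and 0.78 (SE 0.08, adjusted p = 1.6e-06) in exposed cells. Atp6v1e1 was lower by 0.57 in naive cells (log2 fold change -0.57, SE 0.07, adjusted p = 4.4e-06) and by 0.70 in exposed cells (-0.70, SE 0.06, adjusted p = 1.2e-07), and no null library overlapped a wild type one of its treatment for either gene. Atp6v1e1 was the 1 member lower in null mice, while no other pump gene was called in exposed cells.

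Rab27a was higher in null mice by 0.46 (SE 0.11, adjusted p = 0.0079) in naive and 0.40 (SE 0.10, adjusted p = 0.014) in exposed cells, the second not called on TPM (0.33, adjusted p = 0.052). Lamp1 was higher by 0.26 (SE 0.05, adjusted p = 0.0016) in naive and 0.21 (SE 0.05, adjusted p = 0.0050) in exposed cells, from 664 to 702 CPM in wild type against 793 to 832 in null naive libraries, and the exposed call did not hold on TPM (0.17, adjusted p = 0.055). Rab5c was called in exposed cells, with 0.21 (SE 0.05, adjusted p = 0.013), and not on TPM. With only the 2 exposed groups in the fit, Rab27a, Lamp1 and Rab5c were not called (adjusted p 0.067, 0.066 and 0.10). In naive cells Rab32 was higher by 0.50 (SE 0.08, adjusted p = 2.0e-04), Atp6v1a by 0.41 (SE 0.10, adjusted p = 0.011), Atp6v0d2 by 0.30 (SE 0.06, adjusted p = 0.0030) and Stx7 by 0.30 (SE 0.06, adjusted p = 0.0018), of which Stx7 was not called on TPM (0.19).

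**Figure D5:**
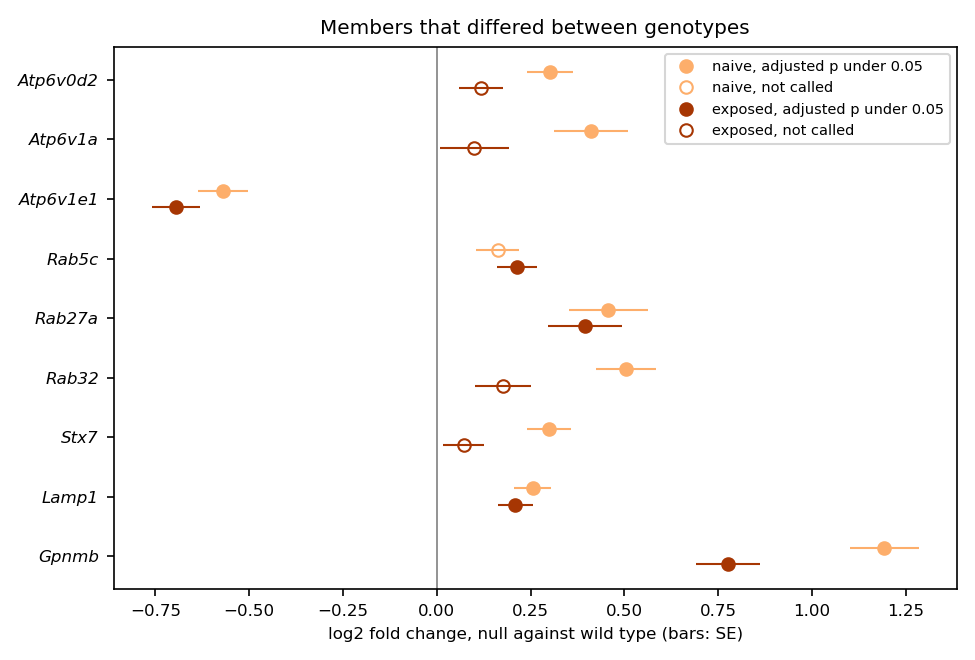
Log2 fold change of ICAM-1 null against wild type libraries (horizontal axis, bars are SE) for the 9 members called in naive or exposed cells; filled points have adjusted p under 0.05. Gpnmb lies to the right in both states (1.19 and 0.78) and Atp6v1e1 to the left (-0.57 and -0.70).

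The test of the difference between the 2 responses called none of the 39 members, and DESeq2 called none (0.332% of all genes were called). At an unadjusted p under 0.05 were 7 of the 39 members (17.9%) and 2019 of all 20501 genes (9.85%). The smallest adjusted p were those of Gpnmb, with a null response smaller by 0.42 (log2 difference -0.42, SE 0.12, adjusted p = 0.19), Rab32 (-0.33, SE 0.11, adjusted p = 0.27) and Stx7 (-0.23, SE 0.08, adjusted p = 0.30). Calls made in 1 genotype and not in the other, such as those of Mitf, Tfeb or Atp6v0d2, are therefore not shown to differ between genotypes.

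Other genes of the pathway came from lists that hold no member. Beside their counts below stand the shares of all genes tested, 20.1% higher and 20.2% lower in wild type and 21.4% and 23.4% in null mice. Whether any list departs from these shares was not tested. Of 14 tested genes for other pump subunits and assembly factors, 2 rose and 2 fell in wild type and none rose and 4 fell in null mice (median 0.06 and -0.15). Atp6v1g2, the isoform of the G subunit known from neurons, fell by 1.71 (SE 0.16) in wild type and 1.33 (SE 0.15) in null mice. Ccdc115, a pump assembly factor, had -0.06 in wild type, fell by 0.53 in null mice, and was lower by 0.34 in null than in wild type exposed cells (adjusted p = 0.0059). Of 16 genes, made up of Tfec and genes that control TFEB through mTORC1 at the lysosome, 8 rose and 3 fell in wild type and 6 and 3 in null mice. Fnip1, the partner of folliculin, rose by 1.26 and 0.95, and Lamtor3, a Ragulator subunit that tethers mTORC1 to the lysosome, by 0.95 and 0.86, both on TPM also. Tfec, a further relative of the MiT/TFE factors, rose by 0.76 and 0.83 and was higher in null than in wild type exposed cells by 0.41 (adjusted p = 0.011).

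Of 23 genes for the exchange of Rab5 for Rab7, tethering and phosphoinositides, 5 rose and 7 fell in wild type and 4 and 8 in null mice (median -0.05 and -0.06). Rabgef1, which loads Rab5 with GTP, went from 27.8 ± 4.13 TPM (SD, n = 4) to 166 ± 13.9 (n = 5) in wild type and from 30.1 ± 1.32 (n = 5) to 218 ± 36.5 (n = 5) in null mice. Its log2 fold change on counts was 2.99 (SE 0.11, adjusted p = 5.6e-15) and 3.18 (SE 0.10, adjusted p = 3.3e-16), close to that of Rab20. The Rab5 genes it acts on were not called on counts, while on TPM Rab5b and Rab5c were lower in both genotypes and Rab5a in null mice. Vps39, of the HOPS complex that tethers late endosomes to lysosomes, fell by 0.51 and 0.63. Between genotypes 1 of the 23 genes was higher in naive null cells, against 4.31% of all genes. In exposed null cells 2 were higher and 3 lower, against 4.43% and 4.04%. Of 14 other phagosome Rabs, 8 rose and 2 fell in each genotype, among them Rab11a (0.49 and 0.54) and Rab22a (0.80 and 0.64). Rab7b was lower in null mice by 0.89 in naive cells (log2 fold change -0.89, adjusted p = 3.2e-05) and 1.24 in exposed cells (-1.24, adjusted p = 1.7e-07).

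Of 14 other SNAREs 7 rose and 2 fell in each genotype. Stx11, a syntaxin of immune cells, rose by 3.77 (SE 0.22) and 3.88 (SE 0.21) on counts, or 2.82 and 2.57 on TPM, and Stx3 by 0.77 and 0.63. Stx11 was lower in null mice in both states (-0.89 and -0.78), of which the naive call did not hold on TPM (-0.51, adjusted p = 0.098), and Vamp4 was higher in naive null cells by 0.35 (adjusted p = 5.9e-04). Of 20 other lysosome membrane proteins and transporters, 8 rose and 3 fell in wild type and 6 and 7 in null mice (median 0.12 and -0.04). Slc11a1, the metal transporter NRAMP1 of the phagosome, rose by 1.89 (SE 0.25) and 1.07 (SE 0.22), or 1.09 and 0.65 on TPM, and was higher in naive null cells by 1.41 (adjusted p = 6.3e-04). Slc15a3, a lysosomal peptide transporter, rose by 1.39 and 1.28. Laptm5 was lower in null mice in naive (-0.32) and exposed (-0.26) cells. On log2(TPM + 1), where the median of all genes moved down, 1, 5, 4, 2, 2 and 4 genes of these 6 lists rose and 8, 7, 15, 3, 6 and 10 fell in wild type, in the order given. Of all genes 11.0% rose and 41.0% fell on that scale.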

How the data were processed

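RNA of lavage cells was sequenced from 19 libraries in 4 groups. The authors deposited whole-number expected counts (gene counts estimated by a transcript assembler) and TPM (length-scaled transcript abundance) per gene, made with STAR and StringTie 2 on GRCm39, per the submitters' processing notes. Labels and headers name no strand setting. Of the 56941 genes, 310 rows have no gene name.

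Counts, already whole, were fitted with edgeR 4.0.16 in R 4.3.3: quasi-likelihood F test, 4 group means, TMM scaling, a minimum count of 10 by filterByExpr (20501 genes kept), Benjamini-Hochberg adjustment over all genes tested, and calls at adjusted p under 0.05. The standard error is the absolute log2 fold change over the square root of F. The second scale was limma 3.58.1 on log2(TPM + 1). Ratios were tested by exact permutation. DESeq2 1.42.0 was an alternative, beside other scalings, a filter, pseudocount 0.1 and left-out libraries. In 1 simulated data set for the wild type comparison with all 20501 genes, 54% of 100 changes of 0.5 and 97% of 100 changes of 1 (log2) were recovered, with 5 false calls. The changed genes were drawn from those above a minimum mean level, with equal numbers up and down. The real wild type comparison called 40.2% of all genes, so these rates need not hold there. The choice between counts and TPM was not simulated. Total counts were 32.8 M to 80.3 M, and the lowest count of a member in any library was 445. The labels plan 20 M paired reads and do not give the unit of a count, so 445 counts need not be 445 reads.

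The members and lists were chosen with earlier results of these data known. All members are named; of each pathway list the text names the 2 genes with the smallest adjusted p in an exposure comparison and the 1 with the smallest in a genotype or interaction comparison, where under 0.05. Full statistics go to members that changed by at least 1 (log2) or differed between genotypes. No libraries were identical.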

Additional observations from a re-analysis of the deposited data

Results flagged for a closer look

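In 5 of 156 sets of library values, a set being 1 member in 1 group, the highest library stood apart from the rest of its group by more than the 95% limit of Dixon's test, which chance passes in about 1 in 20 sets. In wild type exposed library 1 this held for Atp6ap2 (475 CPM, the others at 364 to 394), Rab5a (78.1 CPM, the others at 56.7 to 59.4) and Rab14 (330 CPM, the others at 291 to 299). Atp6v0e was at 307 CPM in null exposed library 3, the others at 261 to 274. Tfeb was at 94.7 CPM in null naive library 2, the others at 74.5 to 79.8.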

How the results depend on the processing

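On log2(TPM + 1) and log2(TPM + 0.1), 11 members were called higher and 14 lower in wild type, 9 and 16 in null mice, 2 lower in naive null cells and 1 higher in exposed null cells. Both pseudocounts also turned 16 called directions. In wild type these were Tcirg1 (-0.047), Atp6v0d1 (-0.059 and -0.060), Atp6v0d2 (-0.13), Atp6v0e (-0.11), Atp6v1b2 (-0.039), Atp6v1d (-0.020), Atp6v1f (-0.12), Lamp1 (-0.24) and Lamp2 (-0.14 and -0.15); in null mice Atp6v0d1 (-0.14), Atp6v0e (-0.13), Atp6v1b2 (-0.10), Atp6v1d (-0.10), Vamp3 (-0.0043), Vamp8 (-0.10) and Gpnmb (-0.10). No other setting turned a called direction. The lower count in naive null cells was 2 under upper-quartile scaling, under DESeq2 and with only the groups compared in the fit, and the last gave 1 higher in exposed null cells. Without wild type naive libraries 1 to 3 the wild type counts were 15 and 1 and the naive genotype count 1 higher, with the lone remaining library assumed to vary like the other groups. An alternative chosen after seeing the data, without the 3 libraries of low Mitf counts per TPM, gave 4 higher in naive null cells. Leaving out single libraries gave 21 to 26 higher and 2 to 3 lower in wild type, 20 to 23 and 7 in null mice, 7 to 12 and 1 to 2 in naive genotype, 4 to 5 and 1 in exposed genotype, and 0 in the interaction; of the 1330 pairs of a member's call and a left-out library 25 lost the call, and these concern 8 of the 70 calls (Tcirg1, Atp6v1f, Rab27a, Lamp1 and Lamp2 in wild type and Atp6v0d1, Vamp8 and Gpnmb in null mice). Mitf, not called in null mice, was called there without null exposed library 3 (0.95) and without the 3 libraries of low counts per TPM (0.95). The log2 difference of Tcirg1 to Atp6v0a1 in null mice was 0.54 to 0.74. Without null naive libraries 1 to 5 in turn it was 0.59, 0.58, 0.63, 0.66 and 0.66 and not past the threshold. The log2 difference of Atp6v0d2 to Atp6v0d1 in null mice was -0.20 to -0.12. Over all genes tested, the deviations of same-numbered libraries from their group means correlated at -0.048 to 0.073. Such a correlation can miss a pairing or batch that moves few genes, so pairing by number is not excluded. Exposed libraries 1 and 2 held the lowest Tfeb values in both genotypes. With the number as a replicate block 23 members were higher and 3 lower in wild type and 22 and 7 in null mice. The naive genotype comparison then gave 8 and 1 and the exposed one 5 and 1.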
